A study of Mus musculus with 17 samples.

Results

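The miR-10 and miR-196 microRNAs (miRs) of the Hox clusters were followed in mouse kidney after ischemia reperfusion injury (IRI). The members were chosen by name, as the array entries mmu-miR-10a, mmu-miR-10b, mmu-miR-196a and mmu-miR-196b without a star, and were 4 of the 569 mature mouse miRs on the array. Kidneys of C57/BL6 mice aged 10 to 12 weeks were taken after 30 minutes of warm ischemia (IRI), after sham surgery without ischemia, or from naïve mice without surgery, and both surgeries were sampled on 8 days, from day 1 through days 3, 5 and 7 and days 10 and 14 to day 21 and day 30. The 17 samples were each RNA pooled from 3 mice, with 1 pool per surgery and day and 1 naïve pool, so the days served as replicates of an arm and the spread between mice was not measured. The sample labels describe the mice as female, whereas the methods of the study describe them as male. Each of 8 arrays held both pools of 1 day, IRI in the Cy3 channel and sham in the Cy5 channel, and the remaining array held the naïve pool alone, in Cy3. The dyes were not swapped, so a constant offset of IRI from sham at a probe and an effect of the dyes cannot be told apart. A pool of whole kidney also cannot tell a change in the share of a cell type from a change in the level of a miR per cell.

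The Hox genes encode transcription factors that set position along the body axis of the embryo, and they lie in clusters on several chromosomes. The genes of miR-10 and miR-196 lie within these clusters and are transcribed along with their Hox neighbours, and several Hox mRNAs are targets of the miRs, with Hoxb8 the best known target of miR-196. A miR finds its targets mainly through its seed, a short stretch near its 5′ end. In adult kidney miR-10a and miR-10b are known to be abundant.

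The mature sequences are shown because the 2 members of each family are nearly identical, which bears on how far their probes can be told apart. The target sequence of each member in the scanner files was identical to a mature sequence of RefSeq (build GRCm38.p6), in which the seed, bases 2 to 8, is set in capitals here.
mmu-miR-10a: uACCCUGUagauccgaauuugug
mmu-miR-10b: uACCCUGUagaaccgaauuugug
mmu-miR-196a: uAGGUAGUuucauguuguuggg
mmu-miR-196b: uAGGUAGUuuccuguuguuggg
mmu-miR-100: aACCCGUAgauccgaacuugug
The miR-10 members shared the seed ACCCUGU and differed at 1 position, U12A from miR-10a to miR-10b, counted from 1 at the 5′ end. The miR-196 members shared the seed AGGUAGU and also differed at 1 position, A12C from miR-196a to miR-196b. No other miR on the array shared either seed. Besides miR-10b, the nearest relative of miR-10a on the array was miR-100, which was 3 edits away and has another seed, and signal that a probe may take from the other member of its family was not tested.

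The mature miR-10a matched 1 place in GRCm38.p6, chr11:96317186-96317208 on the plus strand, in the gene Mir10a. This gene lies within the annotated span of Hoxb3 and next to Hoxb4. miR-10b matched chr2:74726074-74726096 on the plus strand, in Mir10b, within the annotated spans of Hoxd3 and Hoxd4. miR-196a matched 2 places that carry the same mature sequence and cannot be told apart on the array, chr11:96265187-96265208 in Mir196a-1, between Hoxb9 and Hoxb13, and chr15:102973365-102973386 in Mir196a-2, between Hoxc9 and Hoxc10, both on the plus strand. miR-196b matched chr6:52230129-52230150 on the minus strand, in Mir196b, between Hoxa9 and Hoxa10. The genes that carry these sequences thus lie in all 4 Hox clusters, A to D, although the array does not show whether the miR-196a measured came from cluster B, from cluster C or from both.

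Levels are normalized fluorescence intensities on a linear scale, made comparable over the 17 samples by loess within an array and quantile normalization between arrays, and they are compared between samples for 1 probe, or for 1 fixed sum of probes, and not between probes. A miR was called above background in a sample when its mean scanner signal exceeded that of the 250 empty spots (their median plus 3 median absolute deviations). In that sense miR-10a, miR-10b and miR-196a were above background in all 17 samples, as were 104 of the 569 miRs. miR-196b was above background in 7 of 8 IRI samples, 6 of 8 sham samples and the naïve pool. On the naïve array 347 of the 569 miRs passed this rule, against 124 to 372 on the other channels. Among them was miR-615-5p, which passed in no surgery sample, so the naïve call of miR-196b says little about its presence. Tests covered the 162 miRs whose level reached 200 in at least 1 sample, and all 4 members were among them, miR-196b through 1 IRI sample alone, that of day 14. Of the 4 tubule markers taken to check the label kidney, miR-192 and miR-194 were above background in all 17 samples, and miR-192 reached its highest level, 10656, in the naïve pool.

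miR-10a was higher in IRI than in sham kidneys late in the time course, with a mean IRI/sham ratio of 1.51 over the 8 days. Its close relative miR-10b followed the same days at smaller ratios. The ratios of both were small up to day 7 and larger from day 10 on. Of the 4 members only miR-10a passed the test of the mean ratio, in the reported processing and not in all others, and none passed that of the slope over the days.

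In IRI kidneys the level of miR-10a ranged from 4777 on day 5 through a median of 7241 to 8294 on day 14. In sham kidneys it ranged from 2709 on day 30 through a median of 4638 to 6360 on day 7. The arms thus overlapped over the whole series, since the sham kidneys of days 1, 3, 7 and 21 were above the lowest IRI kidney. The log2 IRI/sham ratio of miR-10a was 0.18, -0.02, 0.09 and 0.19 on the first 4 days sampled, up to day 7. It was 1.10 on day 10 and 0.96 on day 14, followed by 0.73 on day 21 and 1.54 on day 30, so that every ratio from day 10 on exceeded every earlier one. On day 30 this was a 2.92-fold difference, from 7899 in IRI and 2709 in sham.

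Over the 8 arrays the mean log2 ratio of miR-10a was 0.60 ± 0.19 (SE), positive on 7 of 8 arrays, and passed limma's moderated test with Benjamini-Hochberg adjustment over the 162 tested miRs (adjusted p = 0.0358). The exact two-sided sign-flip permutation test over the 8 arrays gave p = 0.0156, where 0.00781 is the smallest p it allows. Of all tested miRs, 18.5% were called higher and 17.9% lower in IRI, and the mean ratio of miR-10a had rank 21 of 162 from the top. The split of 30 higher to 29 lower became 30 to 9 with median scaling. The call depended on the processing and the days: the adjusted p rose to 0.0535 without day 7, 0.0847 without day 10, 0.0887 without day 14, 0.0813 without day 21 and 0.0697 without day 30, and to 0.210 with plain background subtraction, 0.35 with median scaling, 0.0731 with a floor of 200 and 0.0617 with no filter. Without day 5, whose array headers name the channels but not the arms, miR-10a passed (adjusted p = 0.0325). The log2 ratio itself stayed between 0.42 and 0.68 under all alternatives. Without day 7 it was 0.65, larger than the 0.60 over all days. The number of tested miRs called in all was 59 with every day. It was 26 to 46 in the fits without day 7, 10, 14, 21 or 30.

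**Figure D1:**
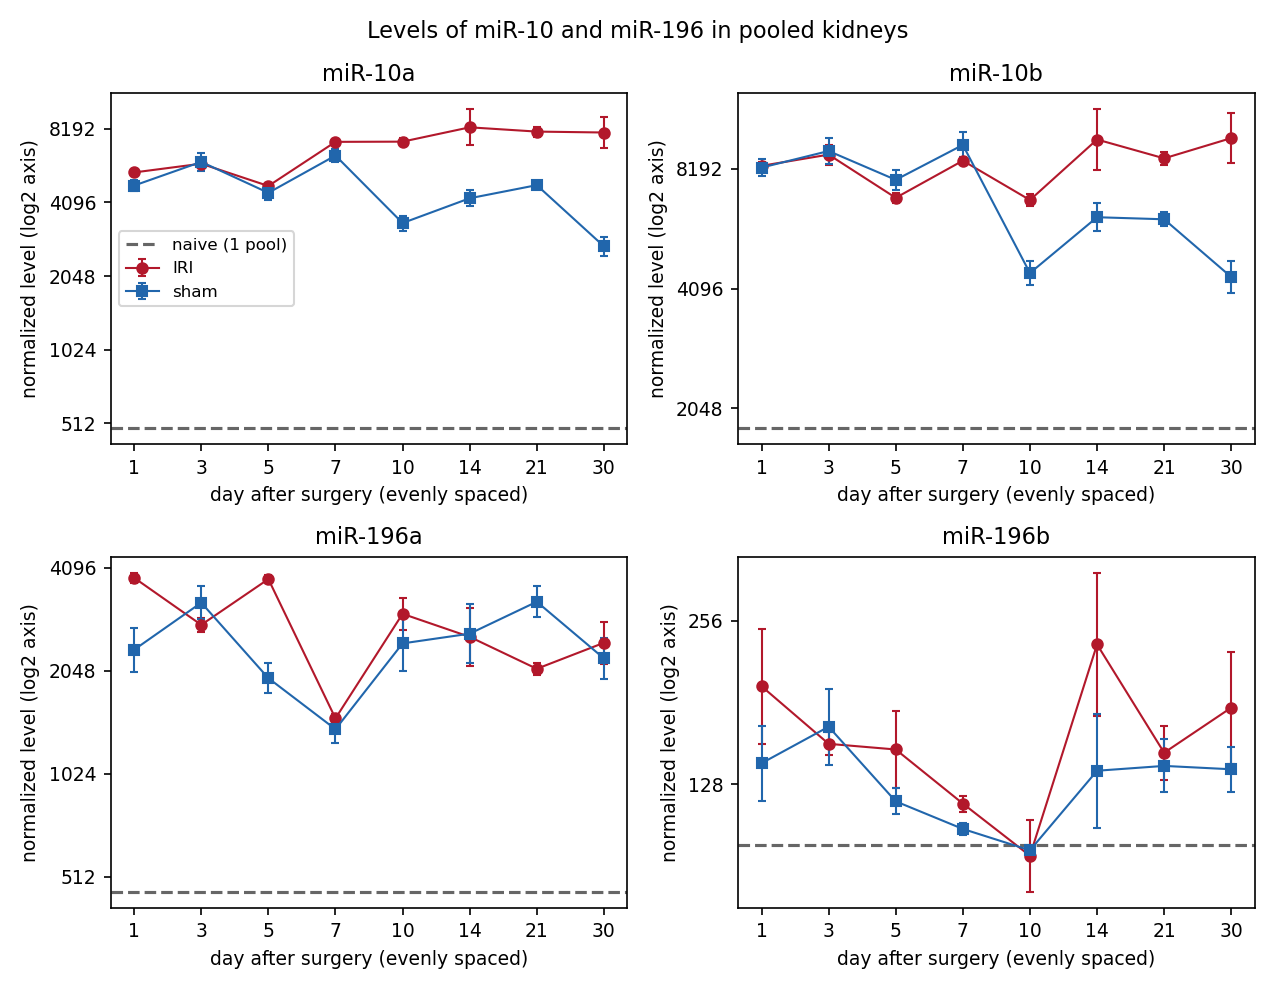
Normalized level of each member (log2 axis) by day after surgery in IRI (circles) and sham kidneys (squares), 1 pool per point. Bars span 2 standard errors of the 6 spots to each side, taken before normalization, and the dashed line is the single naïve pool. The arms of miR-10a and miR-10b lie apart from day 10 on, and 3 of the members lie above naïve at every point.

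miR-10b had levels in IRI kidneys from 6833 on day 10 through a median of 8638 to 9777 on day 30. Its levels in sham kidneys ran from 4377 on day 30 through a median of 6934 to 9398 on day 7. All 4 sham kidneys from day 10 on, at 4377 to 6187, were below all 4 earlier sham kidneys, at 7680 to 9398, as was so for 5.56% of the tested miRs, whereas the IRI kidneys of these periods overlapped. For miR-10a it was the IRI kidneys that lay apart, at 7248 to 8294 from day 10 on against 4777 to 7234 before, as for 3.09% of the tested miRs, and the sham kidneys overlapped, at 2709 to 4815 against 4479 to 6360. The IRI split rested on days 7 and 10, whose step was within 2 standard errors of the spots. With the authors' processed values the IRI kidneys of miR-10a overlapped, with 9648 on day 7 and 6659 on day 10. Its sham kidneys then lay apart, at 2819 to 5016 from day 10 on against 5730 to 7773 before, as did those of miR-10b. The share of tested miRs was not counted for those values. These splits were chosen after the values were seen and carry no test. The log2 IRI/sham ratio of miR-10b was 0.01, -0.03, -0.15 and -0.13 on days 1, 3, 5 and 7, and from day 10 on it was 0.61, 0.65, 0.51 and 1.16 in the order of the days. As for miR-10a, the ratios of the late days were all above those of the early days. The mean log2 ratio of 0.33 ± 0.16 (SE) did not pass the test (limma adjusted p = 0.141; exact sign-flip permutation p = 0.117), with a 95% interval from -0.03 to 0.69. The mean was lower, at 0.16 with plain background subtraction, 0.17 with median scaling and 0.21 without day 30, and did not pass under any alternative.

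The separation of days 10 to 30 from days 1 to 7 was looked at after the ratios were seen, so it is a description and was not tested. It was found in 3.09% of the tested miRs, namely miR-10a, miR-10b, miR-125a-5p, miR-125b-5p and miR-151-5p. Over the 8 arrays the ratios of miR-10a and miR-10b correlated with Pearson's r = 0.977 and Spearman's rho = 0.857, and with r = 0.959 without days 10 and 30. These are given as a description with no p, since the ratios fall into these 2 sets of 4 days and a set of 4 is too few for a test of the correlation within it. Days 10 and 30, with the 2 largest ratios of miR-10a, were also the days with the dimmest sham channel: the mean sham signal over background was 525 on day 10 and 537 on day 30, and 679 to 1057 on the other days. On days 14 and 21 the sham signal was 854 and 703 and the log2 ratio of miR-10a was 0.96 and 0.73, and the part of channel brightness in the ratios was not tested.

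**Figure D2:**
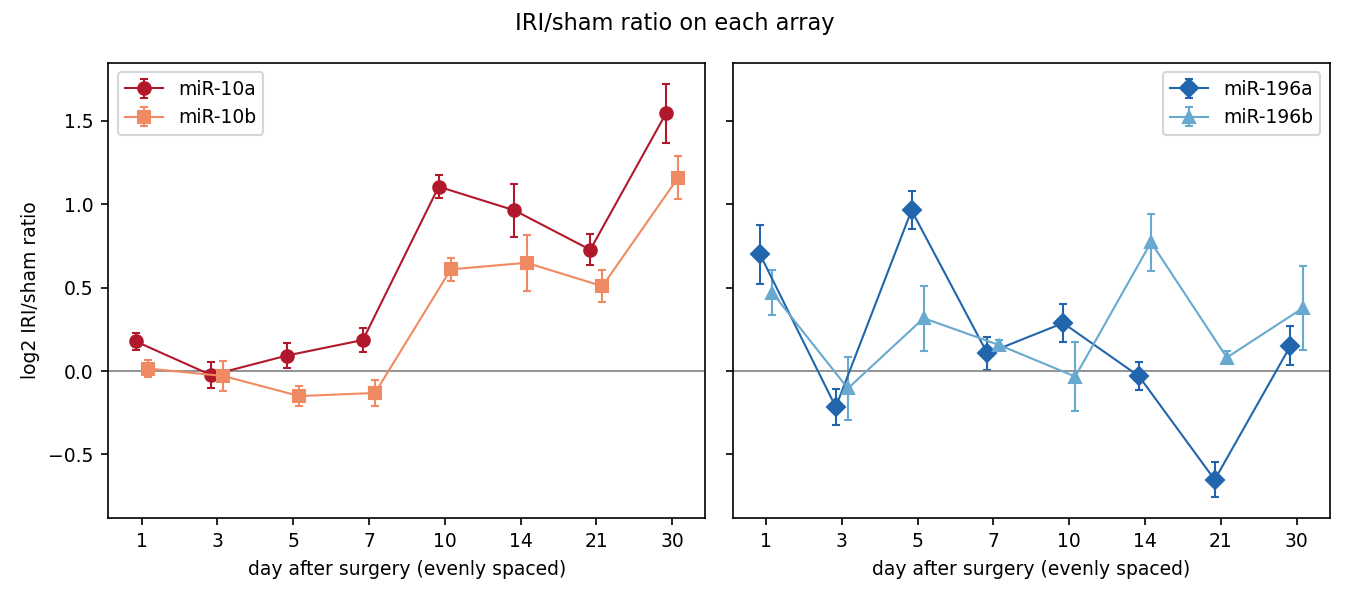
Log2 IRI/sham ratio of the miR-10 members (left) and the miR-196 members (right) on each of the 8 arrays by day after surgery. Bars span 2 standard errors of the ratio over the 6 spots to each side, taken before normalization. The ratios of miR-10a and miR-10b lie between -0.15 and 0.19 up to day 7 and between 0.51 and 1.54 from day 10 on, whereas those of miR-196a and miR-196b keep no such order.

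A constant dye effect drops out of the slope that the ratio has over log2(day), which gives the change of the log2 ratio per doubling of the day. This slope was 0.28 ± 0.09 (SE) for miR-10a and 0.23 ± 0.08 for miR-10b. Neither passed limma's test over all tested miRs (adjusted p = 0.128 and 0.149), in which only 1.23% of miRs were called rising and 1.23% falling. Without adjustment, the exact two-sided permutation of the days gave p = 0.0189 for miR-10a and 0.0238 for miR-10b. Both slopes passed without day 1, with an adjusted p of 0.0432 for miR-10a and 0.0478 for miR-10b, and both passed when day replaced log2(day), at 0.0439 and 0.0393. Without day 1 the slopes were 0.44 and 0.37, and without day 30 they were 0.22 and 0.16, with adjusted p of 0.302 and 0.375. The adjusted p also rose without day 14 (0.242 and 0.268) and without day 21 (0.205 and 0.281), with plain background subtraction (0.297 and 0.561), with median scaling (0.268 and 0.281) and with no filter (0.403 and 0.415). The slopes were positive under every alternative run.

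Each arm was also fitted alone, on samples of 1 dye. The loess and quantile steps combine both channels of an array, so the level of 1 arm is not independent of the other channel. Median scaling treats each channel by itself. The log2 level of miR-10a had a slope of 0.15 ± 0.05 (SE) per doubling of the day in IRI (limma adjusted p = 0.128) and -0.14 ± 0.08 in sham (adjusted p = 0.60). That of miR-10b had a slope of 0.04 ± 0.05 in IRI (adjusted p = 0.724) and -0.19 ± 0.08 in sham (adjusted p = 0.330). Of the tested miRs, 4.32% were called rising and 4.32% falling in IRI, and 0.617% rising and 0.617% falling in sham. None of the members was called within an arm. Single days weighed on these slopes: in sham that of miR-10a was -0.06 without day 30 and -0.25 without day 1, and that of miR-10b -0.15 and -0.29, while in IRI that of miR-10b ran from 0.01 without day 30 to 0.08 without day 1. With median scaling the slopes of miR-10a and miR-10b were -0.43 and -0.39 in sham and 0.02 and 0.01 in IRI, with the authors' processed values that of miR-10a in IRI was 0.08, and with plain background subtraction that of miR-10b in IRI was -0.0042.

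miR-10a exceeded miR-10b in the IRI/sham ratio on all 8 arrays. The difference of their log2 ratios ranged from 0.01 on day 3 to 0.50 on day 10, with a mean of 0.27 ± 0.05 (SE). The exact two-sided sign-flip permutation test over the 8 arrays gave p = 0.00781, the smallest it allows, or 0.0156 after adjustment over the 2 pairs compared. With the authors' processed values the mean was smaller, 0.17, at the same exact permutation p. With plain background subtraction the mean was 0.26 and the exact permutation p was 0.125. A difference between the dye effects of the 2 probes cannot be told apart from this mean.

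miR-196a had levels from 1486 on day 7 through a median of 2681 to 3830 on day 1 in IRI kidneys. In sham kidneys they ran from 1381 on day 7 through a median of 2411 to 3260 on day 21. Both arms were thus lowest on the same day and overlapped almost wholly. Its log2 IRI/sham ratio was 0.70, -0.22, 0.96 and 0.11 up to day 7, in the order of the days, and then 0.29, -0.03, -0.65 and 0.15. The ratios on days 5 and 21 lay on opposite sides of 0 and were each more than 2 standard errors of the spots from it, which are errors of 1 array and not of the mice. The mean log2 ratio was 0.16 ± 0.17 (SE; limma adjusted p = 0.473) and the slope -0.16 ± 0.10 (adjusted p = 0.368). The mean ran from 0.05 without day 5 and 0.09 without day 1 to 0.28 without day 21, was 0.04 with the authors' processed values and turned to -0.32 with plain background subtraction. The slope was -0.10 without day 21 and 0.0074 with median scaling.

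miR-196b was dim throughout. Its levels ran from 94.6 on day 10 through a median of 150 to 231 on day 14 in IRI kidneys, and from 96.8 on day 10 through a median of 136 to 163 on day 3 in sham kidneys. On day 10 it was not above background in either arm, and on day 7 not in sham. The log2 IRI/sham ratio was 0.47, -0.10, 0.32 and 0.15 up to day 7 and -0.03, 0.77, 0.08 and 0.38 from day 10 on. It was positive on 6 of 8 arrays with a mean of 0.25 ± 0.10 (SE), which did not pass the test (limma adjusted p = 0.0842). Since miR-196b was admitted to the tests through an IRI sample alone, a p for its being higher in IRI is favoured by the filter, and its ratio is given as a description. The mean was 0.32 with the authors' processed values, 0.53 with median scaling and 0.03 with a floor of 200, and with plain background subtraction its direction turned, to -0.56.

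The log2 ratio of miR-196a less that of miR-196b had a mean of -0.09 ± 0.18 (SE, 8 arrays) and ranged from -0.80 on day 14, the day through which miR-196b was admitted, to 0.65 on day 5. It is given as a description with no p, for the same reason as the ratio of miR-196b. Its direction was not settled, since the mean was 0.24 with plain background subtraction, 0.14 with a floor of 200, 0.011 without day 14 and 0.0011 without day 21, but -0.33 with median scaling, -0.28 with the authors' processed values and -0.20 without day 5. Their ratios correlated with Pearson's r = 0.305 (exact permutation p = 0.466) and Spearman's rho = 0.333 (exact permutation p = 0.428) over the 8 arrays, and with r = 0.232 (exact permutation p = 0.682) without days 5 and 21. With the authors' processed values r was 0.613 (exact permutation p = 0.103), and with median scaling it was 0.565. With miR-196b close to background, the array gives little precision for this comparison.

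**Figure D3:**
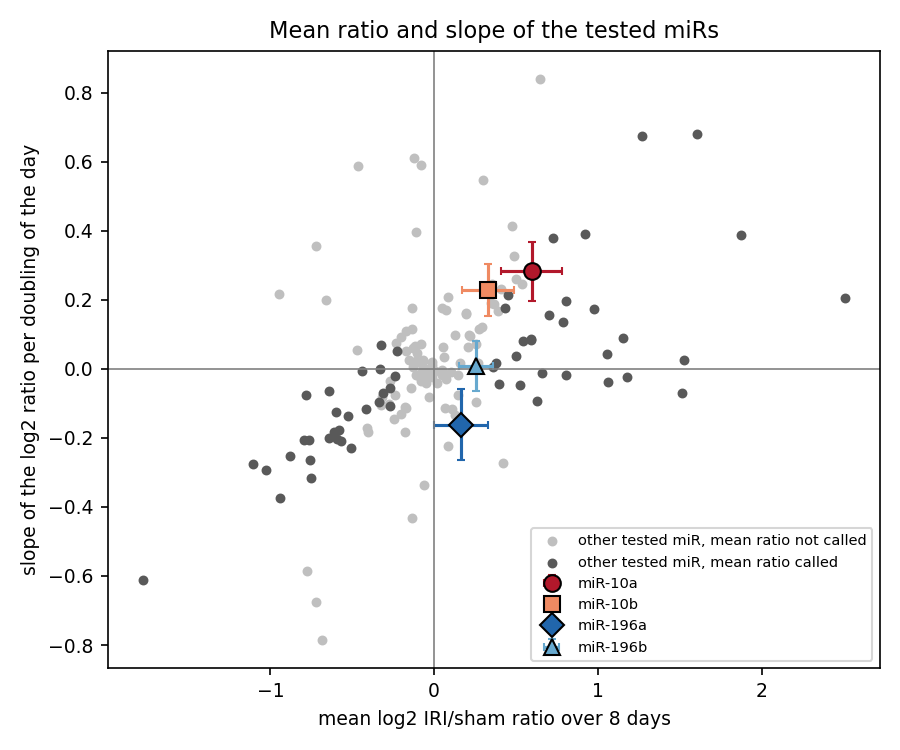
Mean log2 IRI/sham ratio over the 8 days against the slope of the ratio per doubling of the day, 1 point per tested miR (162 in all). Dark points were called in the mean ratio, and bars on the members are standard errors of the fit. miR-10a and miR-10b lie at positive ratio and slope among many other miRs. miR-196b lies near a slope of 0, and miR-196a lies at a slope of -0.16, rank 137 of 162 from the top.

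The order of the days within an arm was compared with the spread of the spots. A step between neighbours in the order of levels was called within the error when it was under 2 standard errors of the spots. These errors were taken before the loess and quantile steps and leave out the error of normalization. For miR-10a, 4 of the 7 steps were within the error in IRI, among them all steps between days 7, 10, 30, 21 and 14 at the upper end. In sham 4 of the 7 steps were within it, and days 30 and 10 at the lower end stood apart from each other and from day 14. For miR-10b the counts were 6 in IRI and 4 in sham, for miR-196a 4 and 6, and for miR-196b 5 and 5.

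miR-10a, miR-10b and miR-196a were higher in every surgery sample than in the naïve pool, and miR-196b was not separated from it. The naïve level of miR-10a was 489, below the lowest of the 16 surgery samples, 2709, and the mean log2 difference was 3.78 for IRI (SD 0.29 over 8 days) and 3.19 for sham (SD 0.41). These are 13.8-fold and 9.10-fold differences. None of the 162 tested miRs had a larger difference in IRI, where miR-27a was next at 3.70, and 1 had a larger one in sham. This rank depended on the processing: 2 miRs had a larger difference in IRI with the authors' values, with background subtraction, with median scaling and with no quantile step, and 4 had a larger one in sham with background subtraction. There is 1 naïve pool on an array of its own, so no test was made, and both arms were set against that same pool. The naïve and IRI pools were in Cy3 and all sham pools in Cy5, so a difference of sham from naïve and an effect of the dyes cannot be told apart, for any member. The normalized IRI levels were built from both channels of an array, and the naïve level from Cy3 alone. An effect of the dyes can thus enter the difference of IRI from naïve as well, and its size was not tested.

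miR-10b had a naïve level of 1824 against a lowest surgery level of 4377, with a mean log2 difference of 2.20 for IRI (SD 0.20) and 1.87 for sham (SD 0.43). miR-196a had 462 in naïve against a lowest surgery level of 1381, with differences of 2.52 (SD 0.45) and 2.35 (SD 0.40). All 16 surgery samples were thus above naïve for miR-10a, miR-10b and miR-196a, as they were for 33.3% of the tested miRs. miR-196b had 98.9 in naïve, 14 of 16 surgery samples above it, and differences of 0.63 (SD 0.40) and 0.37 (SD 0.24), with no separation from naïve. Of all tested miRs, 22.2% exceeded naïve by more than 1 on the log2 scale in IRI and 19.8% in sham, and the median difference was 0.21 in IRI and 0.24 in sham.

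The naïve array was the dimmest and the most variable, with a mean signal over background of 209 against 525 to 1412 on the other channels and a median coefficient of variation between spots of 35.3% against 7.33 to 22.8%. On it the scanner signal of miR-10a was 114 over a background of 511, that of miR-10b 213, that of miR-196a 108 and that of miR-196b 64.6. On the IRI channels, in the same dye, the signal of miR-10a over background was 8511 to 17096. The size of the difference from naïve depended on how this array was scaled: for miR-10a in IRI it was 2.64 with the authors' processed values and 6.13 with loess and no quantile step, which moved the median of all tested miRs from 0.21 to 1.38. Less that median, the values were 3.58 with the quantile step, 2.43 with the authors' values and 4.75 without the quantile step. The differences of miR-10a, miR-10b and miR-196a were above the median of all tested miRs under each of the 7 ways of processing, in both arms. That of miR-196b was below the median with median scaling and with no quantile step, in both arms.

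**Figure D4:**
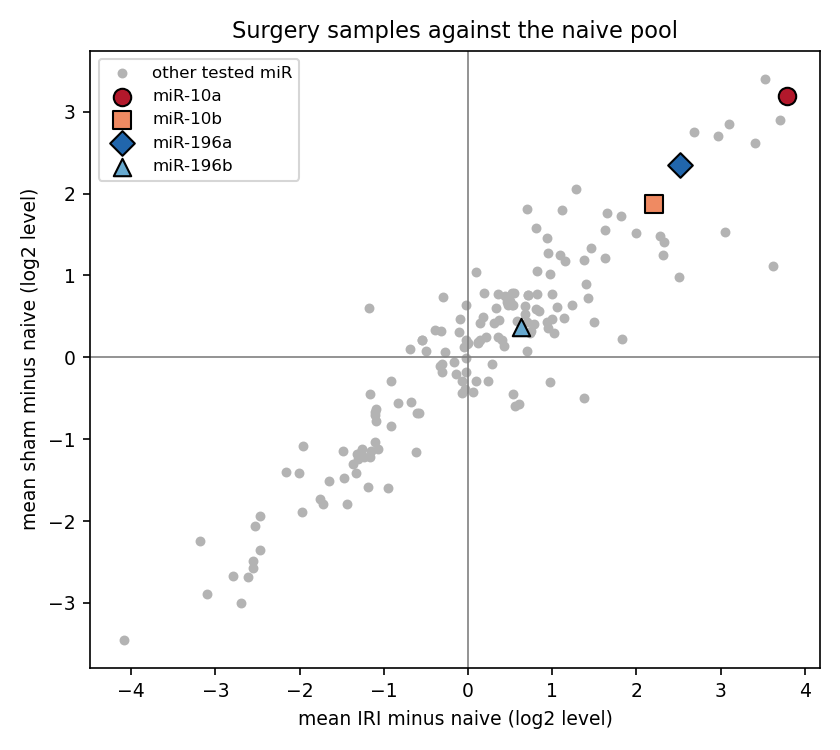
Mean log2 level in 8 IRI samples minus the naïve pool against mean log2 level in 8 sham samples minus the same naïve pool, 1 point per tested miR (162 in all). Both axes share the naïve pool, so points lie along the diagonal. miR-10a lies at the upper right end at 3.78 and 3.19, miR-196a and miR-10b lie below it, and miR-196b lies near the middle.

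**Figure D5:**
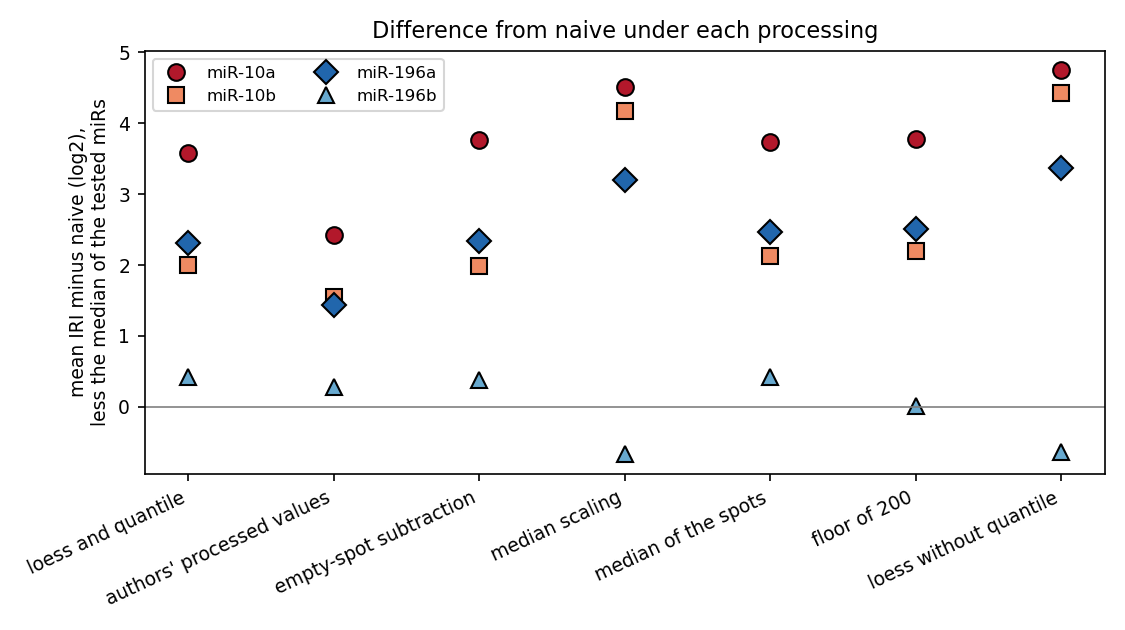
Mean IRI minus naïve on the log2 scale, less the median of the 162 tested miRs, under 7 ways of processing the arrays. miR-10a is the highest member in each, from 2.43 to 4.75, and miR-196b lies between -0.67 and 0.42.

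Of the star strands, which come from the opposite arm of the same hairpins, 3 were on the array. miR-10a* had levels of 133 to 212 in IRI and 127 to 191 in sham, with a mean log2 ratio of 0.21 ± 0.10 (SE), and its log2 IRI/sham ratios from day 10 on, 0.02 to 0.49, overlapped those up to day 7, -0.28 to 0.58. miR-10b* had levels of 121 to 154 in IRI and 120 to 213 in sham and a mean log2 ratio of -0.11 ± 0.11 (SE). The ratio of miR-10b* was -0.81 on day 7, where its sham spots varied widely, and -0.19 to 0.24 on the other days, and with the authors' values it was -0.13 on day 7. Each reached 200 in 1 arm alone, miR-10a* in IRI and miR-10b* in sham on day 7, so their ratios are given as a description with no p. miR-196a* was above background in 1 of 8 IRI samples, 1 of 8 sham samples and not in naïve, and did not enter the tests. The other miR of these clusters on the array, miR-615, from a hairpin within Hoxc5, also stayed under 200: miR-615-3p reached 182 in IRI, 188 in sham and 184 in naïve, and miR-615-5p was not above background in any surgery sample.

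The relatives miR-99a, miR-99b and miR-100, whose sequence resembles miR-10 with a shifted seed, do not lie in Hox clusters. miR-100 entered the tests through IRI samples alone, since it stayed under 200 in sham and naïve, so a call of it as higher in IRI is favoured by the filter. It ran from 135 to 293 in IRI and 122 to 162 in sham, with a mean log2 ratio of 0.45 ± 0.14 (SE; limma adjusted p = 0.0392), positive on 8 of 8 arrays. Over the miRs above background in all IRI and sham samples, a filter that miR-100 passed in both arms, the adjusted p was 0.0359. In other alternatives, all likewise chosen after its value was seen, the call was lost without days 7, 14, 21 or 30 (adjusted p = 0.0684, 0.0968, 0.0935 and 0.0791), with no filter (0.0617) and with a floor of 200 (0.325), and with plain background subtraction the ratio turned to -0.41. miR-99a had a mean log2 ratio of -0.17 ± 0.11 (adjusted p = 0.245) and miR-99b of 0.07 ± 0.13 (adjusted p = 0.660), and neither was called.

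Outside the 4 members, the tested miRs whose log2 IRI/sham ratio was most like that of each member over the 8 arrays were found by Pearson's r, as a description over arrays that share their days. For miR-10a these were miR-125a-5p (r = 0.896), miR-151-5p (r = 0.867) and miR-676 (r = 0.839), and for miR-10b the same miRs at 0.909, 0.947 and 0.860. miR-125a-5p had the wider course, from -1.20 to 2.08, and miR-151-5p one from -0.18 to 1.10. For miR-196a they were miR-30c-2* (r = 0.912), miR-532-5p (r = 0.881) and miR-34a (r = 0.789), and for miR-196b miR-16 (r = 0.923), miR-25 (r = 0.774) and miR-20b (r = 0.730). No miR was among these for both a miR-10 and a miR-196 member.

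Markers of other cell types moved between the arms as well. Of the fibroblast markers, miR-199a-3p and miR-214, which reached 200 in both arms, were called higher in IRI. miR-199a-5p, at 112 to 244 in IRI and 109 to 137 in sham, entered the tests through IRI samples alone and is not counted. The 3 markers, of which miR-199a-3p and miR-214 make up nearly all of the sum, had a summed level of 2221 to 9832 in IRI, 1443 to 3325 in sham and 2909 in naïve. Of the 5 leukocyte markers, miR-150 and miR-155, which reached 200 in both arms, were called higher. miR-223, at 109 to 374 in IRI and 81.3 to 130 in sham, entered through IRI samples alone and is not counted, and miR-142-3p and miR-142-5p stayed under 200. The 5 had a summed level of 1448 to 3266 in IRI, 820 to 1176 in sham and 632 in naïve. Of the 4 tubule markers, miR-192 and miR-194 were called lower, with a summed level of all 4 of 2364 to 6273 in IRI, 5630 to 10668 in sham and 12378 in naïve. The other tubule markers stayed under 200 and were not tested: miR-215 was above background in 1 IRI sample alone, and miR-204, above background in 5 of 8 IRI and 1 of 8 sham samples, had log2 IRI/sham ratios of -0.09 to 0.21 up to day 10 and of 1.00, 0.71 and 0.42 on the 3 days after it. Of 3 erythroid markers 2 were tested and both had a falling slope of the ratio, and the 1 endothelial marker tested of 2 was not called. Their part in the ratios of miR-10a and miR-10b was not tested.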

How the data were processed

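Per the labels, small RNA of each pool was tailed, tagged and stained with Cy3 or Cy5. The authors deposited, for 9 arrays, the mean scanner intensity of every spot (6 per miR), without background correction or normalization, and a table of 1 processed intensity per miR and sample, for which no source used here gives the steps. Each column of the table correlated best with its own channel (r 0.981 to 0.9996, against 0.834 to 0.956 with the other channel), also on the day 5 array, whose headers do not name the arms.

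The background was corrected with normexp in limma 3.58.1 (R 4.3.3, offset 50) over all spots per channel, spots were averaged, channels were normalized by loess (span 0.3), and array means, with the naïve array, by quantiles. The log2 IRI/sham ratio of an array makes the array a block, since IRI and sham of a day share it, and deviations of the 2 arms from their group means correlated between -0.06 and 0.71 on the 8 arrays. limma was fitted over 162 miRs with a level of at least 200 in at least 1 sample, adjusted by Benjamini-Hochberg (threshold 0.05), and scripts were tested on simulated data. Exact sign-flip and permutation tests were two-sided. p-values measure the spread between arrays of different days. The miRs named were the members, their star strands, miR-615, miR-99 and miR-100, the 3 miRs most like each member, and cell type markers. The members and lists were chosen with earlier results of these data known. Alternatives were the authors' processed values (plus 50), subtraction of the median empty spot (floor 20), median scaling, the median of spots, a floor of 200, other filters, no quantile step, a variance trend, no block, day in place of log2(day), and each day left out. The number of arrays limits the precision.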

Additional observations from a re-analysis of the deposited data

How the results depend on the processing

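Of the 500 values of 33 results under another processing, 394 kept their direction, their side of the threshold or their size. With the authors' processed values the mean log2 ratio of miR-196b (0.32) passed the test, to which an IRI sample alone had admitted it, and its slope was -0.025; the differences from naïve in IRI and sham fell to 2.64 and 2.04 for miR-10a, 1.76 and 1.33 for miR-10b, and 1.64 and 1.60 for miR-196a. With plain background subtraction the mean ratio was 0.42 for miR-10a, no longer past the test, -0.32 for miR-196a, -0.56 for miR-196b and, in an alternative chosen after seeing the data, -0.41 for miR-100, the pair difference was 0.26 for miR-10a and miR-10b and 0.24 for miR-196a and miR-196b, the slope within IRI was -0.0042 for miR-10b and 0.0026 for miR-196b, and sham exceeded naïve by 2.85 for miR-196a and 1.12 for miR-196b. The median log2 ratio of all tested miRs was -0.27 in that setting, 0.15 with median scaling and -0.04 in the reported one. With median scaling the mean ratio of miR-10a was 0.48, no longer past the test, the slope of miR-196a was 0.0074 between the arms and -0.20 within sham, and that of miR-196b within IRI was 0.078; IRI and sham exceeded naïve by 6.07 and 5.59 for miR-10a, 5.72 and 5.56 for miR-10b, and 4.75 and 4.56 for miR-196a. With loess and no quantile step these were 6.13 and 5.53, 5.81 and 5.48, and 4.74 and 4.57. The median of the spots gave miR-196b a slope of -0.0026. The ratio of miR-10a, 0.60, no longer passed with a floor of 200 or with no filter, which tested 569 miRs; the floor also gave miR-196b a slope of 0.011 within IRI and a difference of 0.026 from naïve in IRI, put its sham and naïve values all at the floor, so that none is given, and turned the difference of miR-196a and miR-196b to 0.14. With day in place of log2(day) the slopes between the arms, per day, passed for miR-10a (0.049) and miR-10b (0.042), and those of miR-196b were 0.0063 within IRI and 0.0017 within sham. Without 1 day in turn the mean ratio of miR-10a ran from 0.46 to 0.68 and the slope between the arms from 0.22 to 0.44 for miR-10a, 0.16 to 0.37 for miR-10b and -0.024 to 0.11 for miR-196b. The slope of miR-196b ran from -0.064 to 0.098 within IRI and from -0.054 to 0.0022 within sham, that of miR-196a within sham from -0.031 to 0.064, and the difference of miR-196a and miR-196b from -0.20 to 0.011. The number of miRs called by limma in the mean ratio, 59, became 0 with subtraction (37 at an unadjusted p under 0.05), 39 with median scaling, 30 with the floor, 100 with no filter and 26 to 59 without 1 day. The number called in the slope between the arms, 4, became 0 with subtraction (8 unadjusted), 0 with median scaling (29) and 0 with no filter (52), 2 with no replicate block, 14 with day, and 0 to 19 without 1 day (0 without day 21, 25 unadjusted, and without day 30, 28 unadjusted). The number within IRI, 14, became 2, 0 (19 unadjusted), 2 and 2 with subtraction, median scaling, the floor and no filter, and 2 to 22 without 1 day; within sham, 2 became 1, 0 (13 unadjusted), 1 and 1, 1 with a variance trend, and 0 to 4 without 1 day (12 to 19 unadjusted where 0). Without the array as a block miR-10a still passed (adjusted p = 0.0177) and no other call of a member changed. The cause of these changes was not tested. The slopes of miR-196b and its ratio rest on signal close to background.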
